A study of Homo sapiens with 6 samples.

Results

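The 9 mature miRNAs described here came from 7 hairpins of the group II list, outside the let-7 family and the larger miRNA families, and were followed in HEK 293T cells with and without the uridylyltransferases TUT4 and TUT7. They are miR-143-3p, both arms of miR-187, miR-551b-3p, miR-488-3p, miR-760, both arms of miR-1914 and miR-328-3p, and they make up 9 of the 1000 mature miRNAs of the count table and 9 of its 47 group II arms outside let-7 and miR-98. They were picked because they stood out by a rise or a fall between the strains, with no numerical limit. Their change between the strains is therefore what chose them, and it is given below as a description, with no p-value.

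The comparison is between 3 libraries of TENT3A/B double knockout cells (ΔTUT4/7, TENT3A and TENT3B being other names of TUT4 and TUT7) and 3 of the wild type, HEK 293T, a line of human embryonic kidney origin that carries the SV40 large T antigen, all untreated and grown in the same serum-containing medium. The ΔTUT4/7 cells are 1 strain, so other differences between the strains cannot be told apart from the deletion. The deleted genes themselves are outside a miRNA table and give no check of the labels. Values are CPM, estimated counts per 1000000 counts of the library, from totals of 4338558 to 7967606 counts. Each of the 7 hairpins is a separate locus, and the arms of 1 hairpin come from the same precursor.

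Group II precursors are those that leave the Drosha cut with a 3′ overhang shorter than Dicer prefers, and TUT4, TUT7 or a related enzyme can extend it by a single untemplated uridine before Dicer cuts. The same enzymes, recruited by LIN28 proteins, can instead add a longer uridine tail that marks precursors such as pre-let-7 for decay by DIS3L2. After the Dicer cut, either arm of a precursor can be loaded into an Argonaute protein, where bases 2 to 8 of the mature strand, the seed, pair with target mRNAs.

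The mature sequences are shown because the seed sets the targets and the base composition differs between the members that were lower and those that were higher in ΔTUT4/7 cells. They are written 5′ to 3′ as RNA, with the prefix hsa- (human) that is left out elsewhere, from RefSeq on GRCh38.p14, with the seed in capitals. Those lower in ΔTUT4/7 cells were:
hsa-miR-143-3p: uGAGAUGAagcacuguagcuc
hsa-miR-187-3p: uCGUGUCUuguguugcagccgg
hsa-miR-187-5p: gGCUACAAcacaggacccgggc
hsa-miR-551b-3p: gCGACCCAuacuugguuucag
hsa-miR-488-3p: uUGAAAGGcuauuucuugguc
hsa-miR-328-3p: cUGGCCCUcucugcccuuccgu
Those higher in ΔTUT4/7 cells were:
hsa-miR-760: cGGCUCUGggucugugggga
hsa-miR-1914-3p: gGAGGGGUcccgcacugggagg
hsa-miR-1914-5p: cCCUGUGCccggcccacuucug

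No seed was shared between members. The only other miRNA of the table with the seed of a member was miR-551a, which carries that of miR-551b-3p. None of the 9 shares its first 18 nt, the length to which the reads were trimmed, with another miRNA of the table. Near matches were not compared, and the sources used here do not give the mismatches allowed in alignment. Reads assigned to a similar miRNA are therefore not excluded. No base past the 18th and no added uridine was read.

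The loci lie on 6 chromosomes (hg38, with genes from GENCODE release 44). MIR143 spans chr5:149428918-149429023 on the plus strand, in an exon of the long noncoding RNA CARMN, with miR-143-3p at chr5:149428978-149428998, and MIR145 lies 1623 nt from it (miR-145 was not analysed here). MIR187 spans chr18:35904818-35904926 on the minus strand, with the 3p arm at chr18:35904835-35904856 and the 5p arm at chr18:35904871-35904892, and overlaps no other annotated gene. MIR551B spans chr3:168551854-168551949 on the plus strand, in an intron of the pseudogene EGFEM1P, with the 5p arm at chr3:168551875-168551896 and the 3p arm at chr3:168551914-168551934. MIR488 spans chr1:177029363-177029445 on the minus strand, in an intron of ASTN1, a gene of neuronal migration, with miR-488-3p at chr1:177029374-177029394. MIR760 spans chr1:93846832-93846911 on the plus strand, opposite an intron of BCAR3, with miR-760, its only annotated arm, at chr1:93846880-93846899. MIR1914 spans chr20:63941465-63941544 on the minus strand, in an intron of the canonical transcript of UCKL1, a uridine-cytidine kinase-like gene, and in an exon of another of its transcripts, with the 3p arm at chr20:63941474-63941495 and the 5p arm at chr20:63941511-63941532. MIR647 lies 1087 nt from it and was not analysed here. MIR328 spans chr16:67202321-67202395 on the minus strand, opposite an intron of ELMO3, with miR-328-3p at chr16:67202327-67202348. The 5p arms of miR-143, miR-488 and miR-328 were not analysed here.

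Group II precursors are described by their overhang, but the paper took its list from MirGeneDB hairpins marked for 3′ NTU, an untemplated uridine. To set the overhang beside the list, the precursors were folded from the first base of the 5p arm to the last base of the 3p arm as annotated. Of the 6 hairpins with both arms in RefSeq, 4 had a predicted 3′ overhang of 2 nt, miR-1914 one of 3 nt and miR-488 one of 1 nt, which became 2 nt when the whole hairpin was folded. Over 731 hairpins folded in the same way, 23.4% had 1 nt and 42.8% had 2 nt. Of the 27 on the group II list outside let-7 and miR-98, 14.8% had 1 nt and 63.0% had 2 nt. An overhang of 2 nt was thus not particular to the members. Annotated ends of mature miRNAs need not be the ends left by Drosha, and precursor ends were not measured here.

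In wild type cells the members ranged from among the more abundant miRNAs to the edge of detection. miR-551b-3p was the most abundant at 659.3 ± 218 CPM (SD, n = 3), above 88.3% of the 826 miRNAs tested, and miR-187-3p followed at 248.3 ± 13.0 CPM. Below them came miR-760, miR-143-3p, miR-488-3p, miR-187-5p, miR-328-3p, miR-1914-3p and miR-1914-5p, the last at 0.270 ± 0.167 CPM. In that order the wild type libraries of miR-488-3p overlapped those of miR-187-5p, and those of miR-328-3p overlapped those of miR-1914-3p. In ΔTUT4/7 cells miR-760 stood second after miR-551b-3p, and the 6 members below miR-187-3p lay between 0.394 and 7.46 CPM in every library. miR-551b-3p, miR-187-3p and miR-760 had at least 165 counts in every library, while the other 6 had at most 88 and as few as 1.

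**Figure D1:**
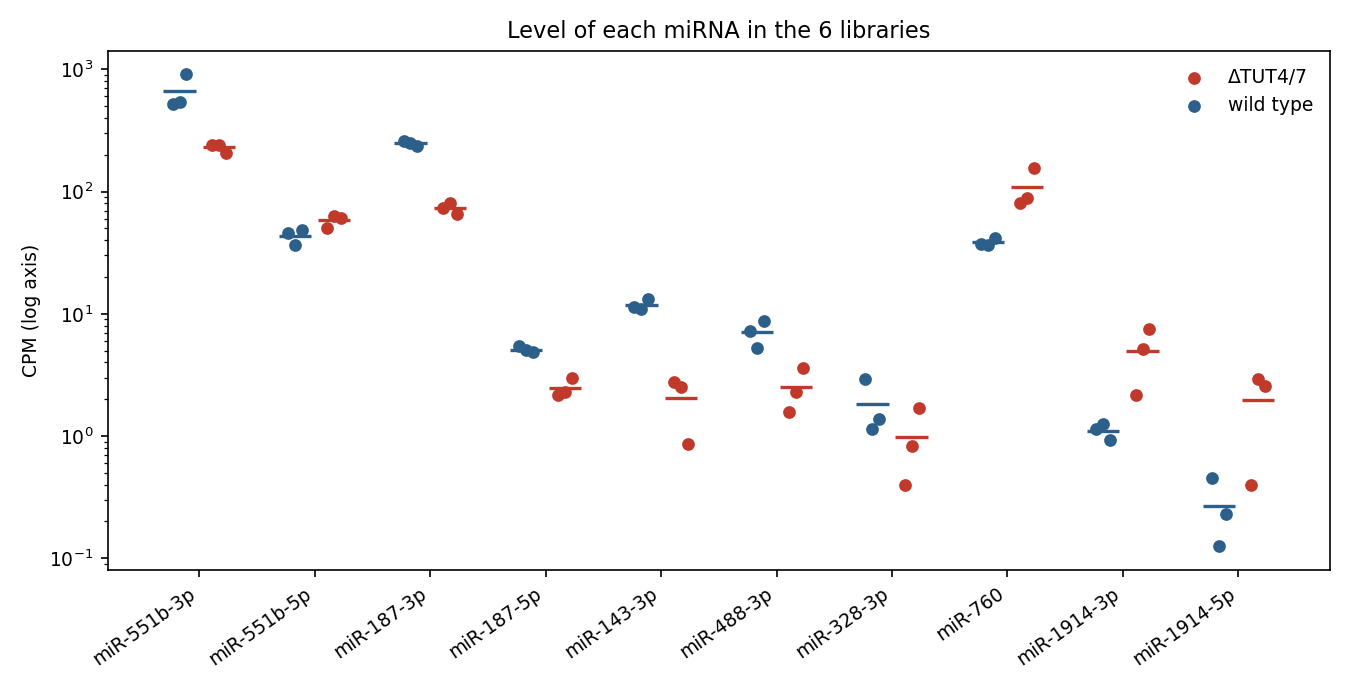
CPM (log axis) of the 9 members and of miR-551b-5p in the 3 wild type (blue) and 3 ΔTUT4/7 (red) libraries, with bars at the strain means. The strains do not overlap for miR-551b-3p, both arms of miR-187, miR-143-3p, miR-488-3p, miR-760, miR-1914-3p and miR-551b-5p, and they overlap for miR-328-3p and miR-1914-5p.

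By the rule applied to all miRNAs, at least 2-fold with an adjusted p under 0.05 in edgeR's quasi-likelihood test, 3 of the 9 members were higher and 5 lower in ΔTUT4/7 cells, where 16.5% of the 826 tested miRNAs were increased and 13.6% decreased. All 3 ΔTUT4/7 libraries lay above all 3 wild type libraries for 2 members (28.8% of tested miRNAs) and below them for 5 (29.5%). These calls are a count of how the common rule falls on the members and no evidence for their change, since the members were chosen on this contrast.

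The largest decrease among the members was that of miR-143-3p, a miRNA abundant in smooth muscle and other mesenchymal cells. It had 2.76, 2.50 and 0.853 CPM in ΔTUT4/7 replicates 1, 2 and 3 and 11.3, 11.0 and 13.1 CPM in wild type replicates 1, 2 and 3. The strains were apart, and ΔTUT4/7 replicate 3, with 4 counts, was the lowest. The mean was 5.82-fold lower in ΔTUT4/7 cells, a log2 fold change of -2.51 ± 0.35 (SE). The other marker of smooth muscle and mesenchyme found in the table, miR-199a-3p, had 19.0 to 21.0 CPM in ΔTUT4/7 and 35.3 to 44.8 CPM in wild type libraries. With miR-143-3p, these 2 of the 4 listed markers summed to 19.8 to 23.5 CPM and 46.7 to 55.9 CPM. The 3 blood markers found, of 4 listed, were also lower in sum, at 33.1 to 38.2 CPM against 52.8 to 103 CPM. Most of this sum was miR-142-3p, which was lower, as was miR-142-5p, while miR-451a overlapped between the strains. The part of such cells in the value of miR-143-3p was not tested. The liver marker miR-122-5p was lower as well, at 0.208 to 0.788 CPM against 1.13 to 1.76 CPM, while the endothelial marker miR-126-3p was higher, at 3830 to 3940 CPM against 2800 to 3610 CPM. All 5 miRNAs listed as typical of HEK 293T cells were present, summing to 149000 to 158000 CPM in ΔTUT4/7 and 80400 to 113000 CPM in wild type libraries. Of them, miR-20a-5p and miR-92a-3p were higher in ΔTUT4/7 libraries and miR-10b-5p was lower, while miR-10a-5p and miR-17-5p overlapped between the strains.

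Both arms of miR-187, a miRNA with no annotated host gene, were lower in ΔTUT4/7 cells. miR-187-3p had 73.1, 80.0 and 65.7 CPM in ΔTUT4/7 replicates 1 to 3 and 260.2, 250.3 and 234.4 CPM in wild type replicates 1 to 3. It varied little within either strain, with a coefficient of variation of 9.84% and 5.24%, and its log2 fold change of -1.77 ± 0.16 (SE) had the smallest error of the 9. miR-187-5p had 2.17, 2.29 and 2.99 CPM in ΔTUT4/7 and 5.44, 5.02 and 4.84 CPM in wild type libraries, from 11 to 40 counts each. The strains of the 5p arm were apart as well, and its log2 fold change was -1.03 ± 0.30 (SE), at the edge of 2-fold.

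miR-551b-3p was the most abundant member in both strains. It had 241.2, 238.7 and 208.6 CPM in ΔTUT4/7 replicates 1 to 3 and 524.7, 542.4 and 910.9 CPM in wild type replicates 1 to 3. Wild type replicate 3 lay well above the other wild type libraries, which were still above all ΔTUT4/7 libraries. It stood apart over the whole count table too. Chi-square per degree of freedom was 215 and 222 against wild type replicates 1 and 2, and 77.9 between those. The mean was 2.87-fold lower in ΔTUT4/7 cells, with a log2 fold change of -1.52 ± 0.21 (SE) and of -1.22 without wild type replicate 3.

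The 5p arm of miR-551b, from the same listed hairpin but not among the members, did not follow the 3p arm. Members were arms that stood out by a rise or a fall, so a small change in an arm left out may partly follow from that choice. miR-551b-5p had 50.5, 62.6 and 61.2 CPM in ΔTUT4/7 and 46.0, 36.3 and 48.4 CPM in wild type libraries. All 3 ΔTUT4/7 libraries were above all 3 wild type libraries, but the log2 fold change of 0.42 ± 0.19 (SE) did not pass once adjusted over the 826 miRNAs (edgeR, adjusted p = 0.0917). The arms lie in the same precursor, shown from the first base of the 5p arm to the last base of the 3p arm, with the bases of the predicted overhang in capitals.
miR-551b precursor: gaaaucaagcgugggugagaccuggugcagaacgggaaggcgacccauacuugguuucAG
The 5p arm was 17.3%, 20.8% and 22.7% of the counts of both arms in ΔTUT4/7 replicates 1 to 3 and 8.06%, 6.27% and 5.05% in wild type replicates 1 to 3. The lowest lower bound in ΔTUT4/7 was 15.4% and the highest upper bound in wild type 9.19% (95% exact Clopper-Pearson intervals, which cover counting error only). The strains did not overlap in this share, with 4.0 and 15.1 counts of the 3p arm for each count of the 5p arm on average. Since the share contains the fall of miR-551b-3p for which it was chosen, it is a description of the arms and no separate evidence of a change. The sum of the arms was 287.6 ± 16.1 CPM in ΔTUT4/7 against 702.9 ± 222 CPM in the wild type (SD over 3 libraries each).

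For the same reason without a test, the difference between the log2 fold changes of the 5p and the 3p arm was 1.94 for miR-551b, a size that 7 of the 200 pairs of arms matched by name and both tested reached, itself included, where the median size was 0.57. Among the 16 such pairs of the group II list outside let-7, only miR-194 had a difference at least as large, in the opposite sense, with a log2 fold change of -0.61 for its 5p and 1.41 for its 3p arm. miR-365a, also on the list, had 1.20 for its 5p and -0.48 for its 3p arm. These are not arm differences within 1 hairpin, since miR-194-5p is also made from MIR194-1 and the 3p arms of miR-365a and miR-365b have the same sequence.

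Both arms of miR-187 were lower and both arms of miR-1914 higher in ΔTUT4/7 cells. The 5p arm of miR-187 was 2.88%, 2.78% and 4.35% of both arms in ΔTUT4/7 and 2.05%, 1.97% and 2.02% in wild type libraries. Every ΔTUT4/7 share was above every wild type share, while the intervals of single libraries overlapped, with a lowest lower bound of 1.39% in ΔTUT4/7 and a highest upper bound of 3.08% in wild type libraries. The 5p arm of miR-1914 was 15.4% to 35.9% in ΔTUT4/7 and 9.09% to 28.6% in wild type libraries, from 5 to 47 counts of both arms.

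**Figure D2:**
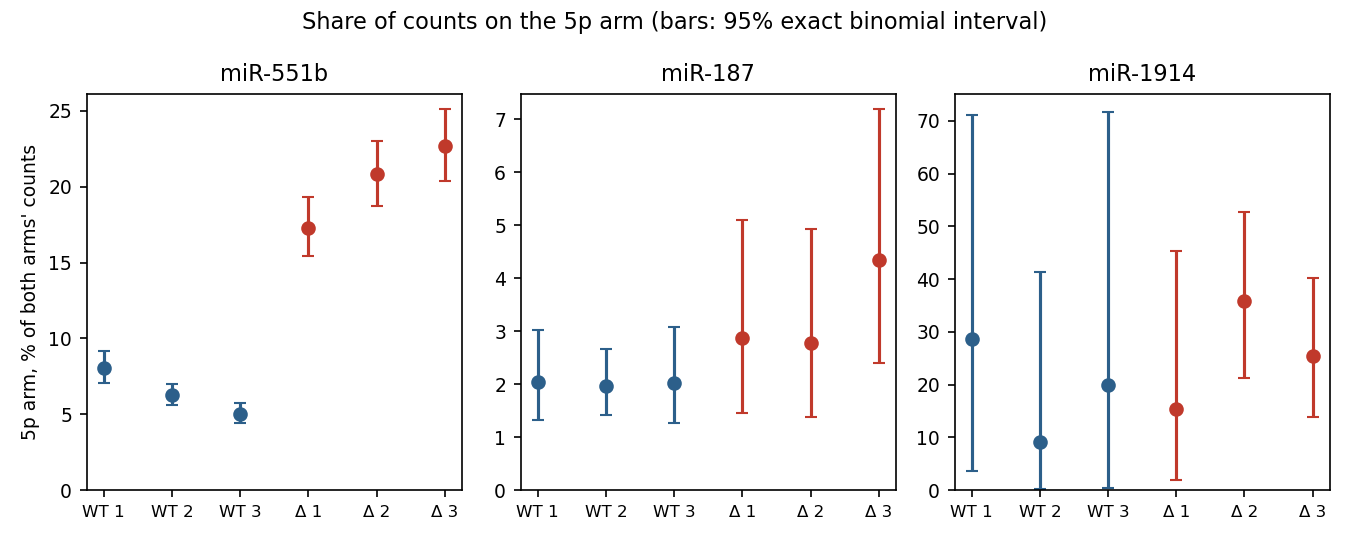
Share of the counts of both arms that fell on the 5p arm (percent) in each wild type (WT) and ΔTUT4/7 (Δ) library, for miR-551b, miR-187 and miR-1914, with 95% exact binomial intervals and a separate axis for each hairpin. The ΔTUT4/7 intervals of miR-551b lie above those of wild type, while those of miR-187 and miR-1914 overlap.

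miR-551a, which shares the seed of miR-551b-3p, was not chosen by the rule. It had 36.3, 39.7 and 38.8 CPM in ΔTUT4/7 and 18.8, 22.2 and 39.0 CPM in wild type libraries, so that wild type replicate 3 again lay apart and overlapped ΔTUT4/7. At a log2 fold change of 0.53 ± 0.26 (SE) it did not pass either (edgeR, adjusted p = 0.109).

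miR-488-3p, from an intron of the neuronal gene ASTN1, had 1.58, 2.29 and 3.63 CPM in ΔTUT4/7 replicates 1 to 3 and 7.25, 5.27 and 8.76 CPM in wild type replicates 1 to 3. The strains were apart, with ΔTUT4/7 replicate 3 nearest to wild type. The mean was 2.84-fold lower in ΔTUT4/7 cells, a log2 fold change of -1.48 ± 0.36 (SE), on 36 and 112 counts.

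miR-328-3p, known as a decoy of the RNA-binding protein hnRNP E2 besides its role as a miRNA, was the least certain member. It had 0.394, 0.832 and 1.71 CPM in ΔTUT4/7 and 2.95, 1.13 and 1.38 CPM in wild type libraries, and the strains overlapped. Its log2 fold change was -0.84 ± 0.62 (SE). The ratio of pooled rates, 0.574 on 14 and 28 counts, had a 95% counting interval of 0.279 to 1.13. Its log2 fold change was -1.48 without ΔTUT4/7 replicate 3, -0.45 without ΔTUT4/7 replicate 1 and -0.35 without wild type replicate 1.

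miR-760 was the most abundant of the members that were higher in ΔTUT4/7 cells. It had 80.4, 89.0 and 155.9 CPM in ΔTUT4/7 replicates 1 to 3 and 37.4, 36.3 and 41.5 CPM in wild type replicates 1 to 3. The strains were apart, and ΔTUT4/7 replicate 3 lay far above the other ΔTUT4/7 libraries. The mean was 2.83-fold higher in ΔTUT4/7 cells, a log2 fold change of 1.50 ± 0.25 (SE) and of 1.14 without ΔTUT4/7 replicate 3.

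Both arms of miR-1914, encoded within UCKL1, were higher in ΔTUT4/7 cells and rested on few counts. miR-1914-3p had 2.17, 5.20 and 7.46 CPM in ΔTUT4/7 replicates 1 to 3 and 1.13, 1.26 and 0.922 CPM in wild type replicates 1 to 3. Its strains were apart, with ΔTUT4/7 replicate 1 nearest to wild type, and its log2 fold change was 2.10 ± 0.48 (SE). miR-1914-5p had 0.394, 2.91 and 2.56 CPM in ΔTUT4/7 and 0.453, 0.126 and 0.231 CPM in wild type libraries. Here ΔTUT4/7 replicate 1, with 2 counts, lay within the wild type range. The log2 fold change of miR-1914-5p was 2.88 ± 0.85 (SE), and the ratio of pooled rates, 8.03 on 28 and 4 counts, had a 95% counting interval of 2.81 to 31.5.

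The members that were higher in ΔTUT4/7 cells had a GC content of 70% to 77.3%, and those that were lower one of 38.1% to 68.2%. Both arms of miR-1914 come from the same precursor. The rule did not use GC content, but GC content went with the fold change over all tested miRNAs, so it is not independent of the choice. Among all tested miRNAs, the 55 with at least 70% GC had a median log2 fold change of 0.83, with 17 increased and 4 decreased, and the 150 with under 40% GC one of -0.15, with 21 increased and 28 decreased. GC content also moved with the libraries within each strain. The 14 miRNAs of at least 70% GC and above 10 CPM were compared with their strain mean on the log2 scale. These, with miR-760 among them, deviated by a median of -0.38 in ΔTUT4/7 replicate 1 and of 0.37 in ΔTUT4/7 replicate 3. The values of miR-760 and miR-1914-3p rose in this order, but so did those of miR-488-3p, at 38.1% GC. In wild type replicates 1, 2 and 3 the median deviations were smaller, at 0.16, 0.07 and -0.15. There miR-760 was highest and miR-1914-3p lowest in replicate 3, and the part of GC content in the members' values was not tested. With the GC trend of each library removed, as was tried after the data had been seen, the log2 fold changes were 1.15 for miR-760, 1.55 for miR-1914-3p and 2.49 for miR-1914-5p. Those of miR-187-3p and miR-187-5p became -1.96 and -1.31.

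**Figure D3:**
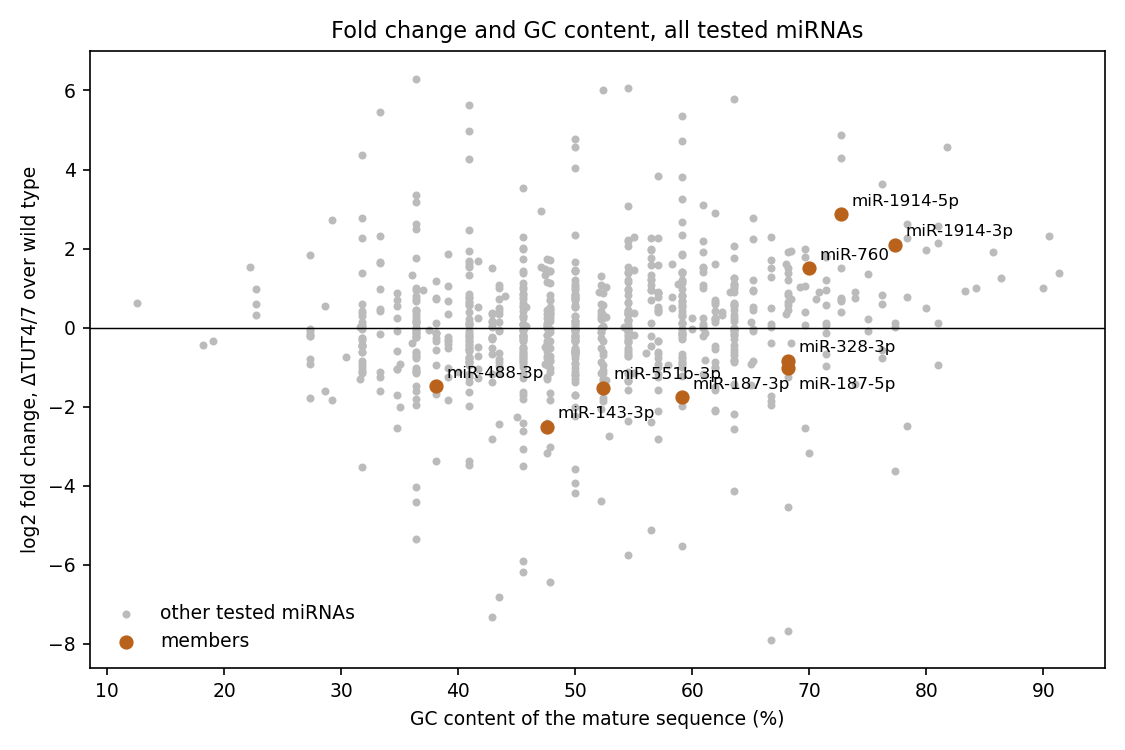
log2 fold change of ΔTUT4/7 over wild type against the GC content of the mature sequence (percent) for the 826 tested miRNAs, with the 9 members in orange. The 3 members above zero lie at 70% GC and over, and the 6 below zero lie between 38.1% and 68.2%.

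The whole group II list outside let-7 and miR-98 sets the members among the other arms said to share their processing. Of its 43 tested arms, 6 were increased (14.0%) and 9 decreased (20.9%) by edgeR's quasi-likelihood test, and the median log2 fold change was -0.41, against 0.01 over all 826 tested miRNAs. Without the 9 members, 3 of 34 arms were increased (8.8%) and 4 decreased (11.8%), with a median of -0.18. Taking out arms chosen for a rise or a fall by itself lowers these shares. The 15 arms of let-7 and miR-98 on the list are the contrast, with 14 increased and a median of 3.18. These values stand side by side, and their difference was not tested.

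Beyond the members, 7 arms of the list were called. miR-24-3p fell from 4097 ± 755 to 1591 ± 40.7 CPM (SD over 3 libraries each), a log2 fold change of -1.36 ± 0.15 (SE), which passed the test (edgeR, adjusted p = 1.54e-05). It was matched by name to MIR24-1, but another copy of miR-24 also makes it, so its fall cannot be assigned to that hairpin. miR-23b-3p, encoded next to a copy of miR-24, fell by 1.12 on the log2 scale, while its 5p arm had -0.22. The 2 arms of miR-99a, which is encoded next to let-7c, fell by 1.20 and 1.19 for 5p and 3p. miR-194-3p (1.41), miR-365a-5p (1.20) and miR-181d-5p (1.08) rose. The call of miR-365a-5p was lost without ΔTUT4/7 replicate 3, where its log2 fold change was 0.83. The largest changes among the uncalled arms outside the members were those of miR-3173-3p (0.85), miR-130b-3p (-0.84) and miR-1306-3p (-0.83). The member miR-328-3p (-0.84) was uncalled as well, and no limit of size set it apart from them.

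**Figure D4:**
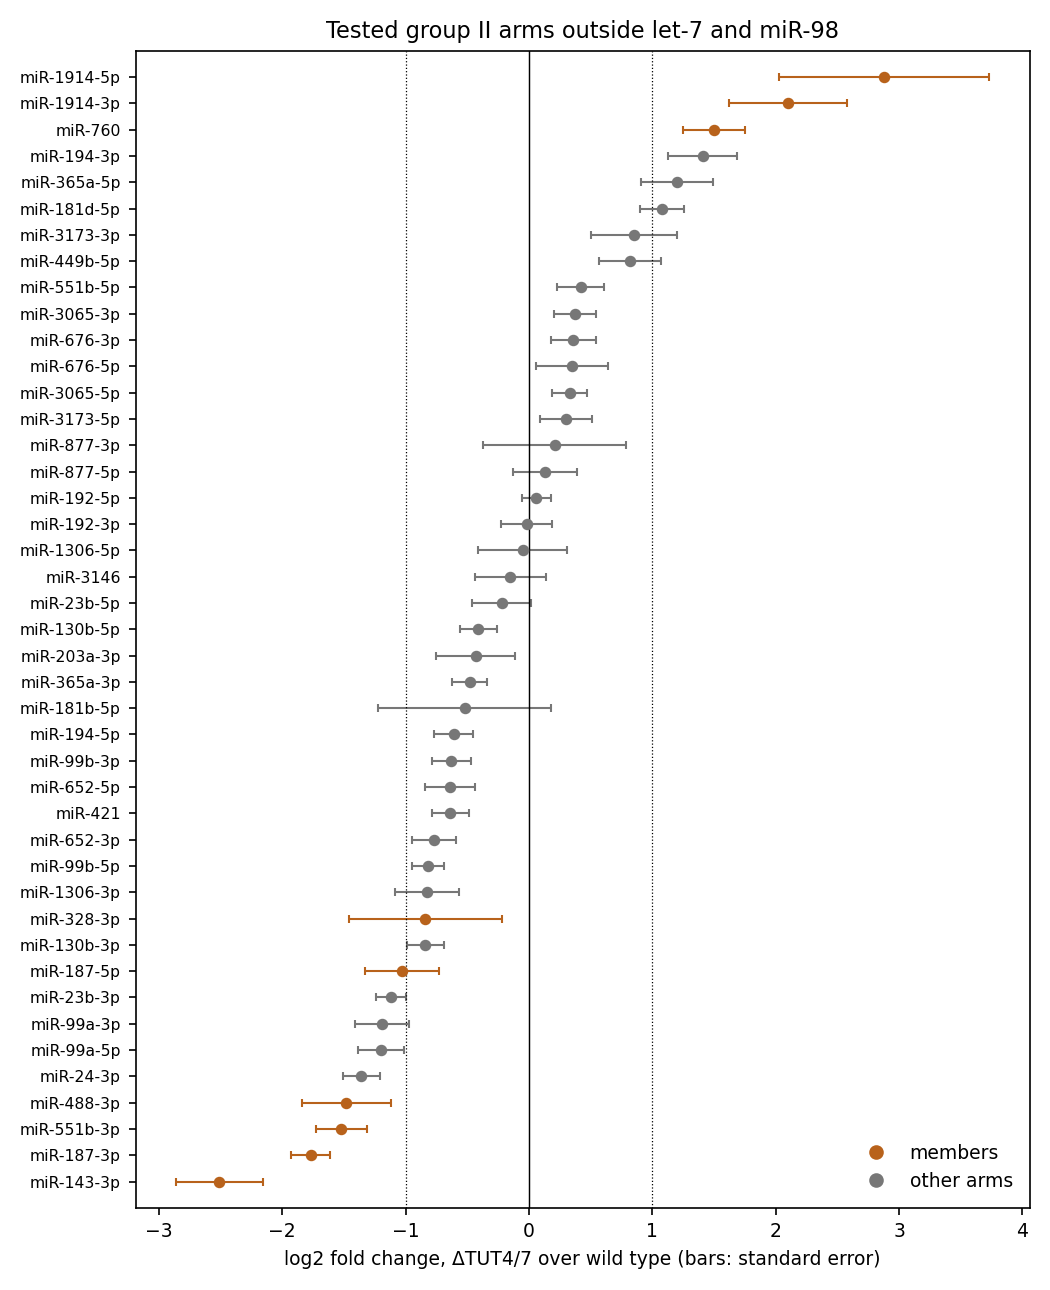
log2 fold change of ΔTUT4/7 over wild type for the 43 tested group II arms outside let-7 and miR-98, with bars of 1 standard error, members in orange and dotted lines at a 2-fold change. The members take both ends, from miR-143-3p at -2.51 to miR-1914-5p at 2.88, as follows from their choice by a rise or a fall. The other arms lie between -1.36 and 1.41, a range that also holds the members miR-187-5p (-1.03) and miR-328-3p (-0.84).

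For the 3 members above 10 CPM on average, the profile over the 6 libraries was compared with those of the other tested miRNAs above 10 CPM, as the root mean square difference of log2(CPM + 0.5) after centring. Those nearest to miR-187-3p were miR-210-3p (0.20), miR-181a-2-3p (0.24) and miR-31-5p (0.25), where the median over all 390 was 0.93. Those nearest to miR-551b-3p were miR-30a-3p (0.15), miR-24-3p (0.16), which is also on the group II list, and miR-31-3p (0.17). Those nearest to miR-760 were miR-365a-5p (0.21), also on the list, miR-941 (0.23) and miR-92a-1-5p (0.24). Both strains enter this measure, so that a like difference between the strains counts as likeness.

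Scaling set the size of the changes but not their direction. let-7 and miR-98 together took 19.2% to 19.7% of the counts of the ΔTUT4/7 libraries and 5.57% to 6.36% of those of the wild type, and CPM counts them in the total of every other miRNA. With let-7 and miR-98 left out of the totals, the median over the 826 miRNAs moved from 0.013 to 0.234 on the log2 scale and the members moved with it, to -2.29 for miR-143-3p, -1.54 for miR-187-3p, -0.81 for miR-187-5p, -1.30 for miR-551b-3p, -1.26 for miR-488-3p and -0.62 for miR-328-3p, and to 1.72 for miR-760, 2.32 for miR-1914-3p and 3.09 for miR-1914-5p. miR-187-5p then lay under 2-fold.

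**Figure D5:**
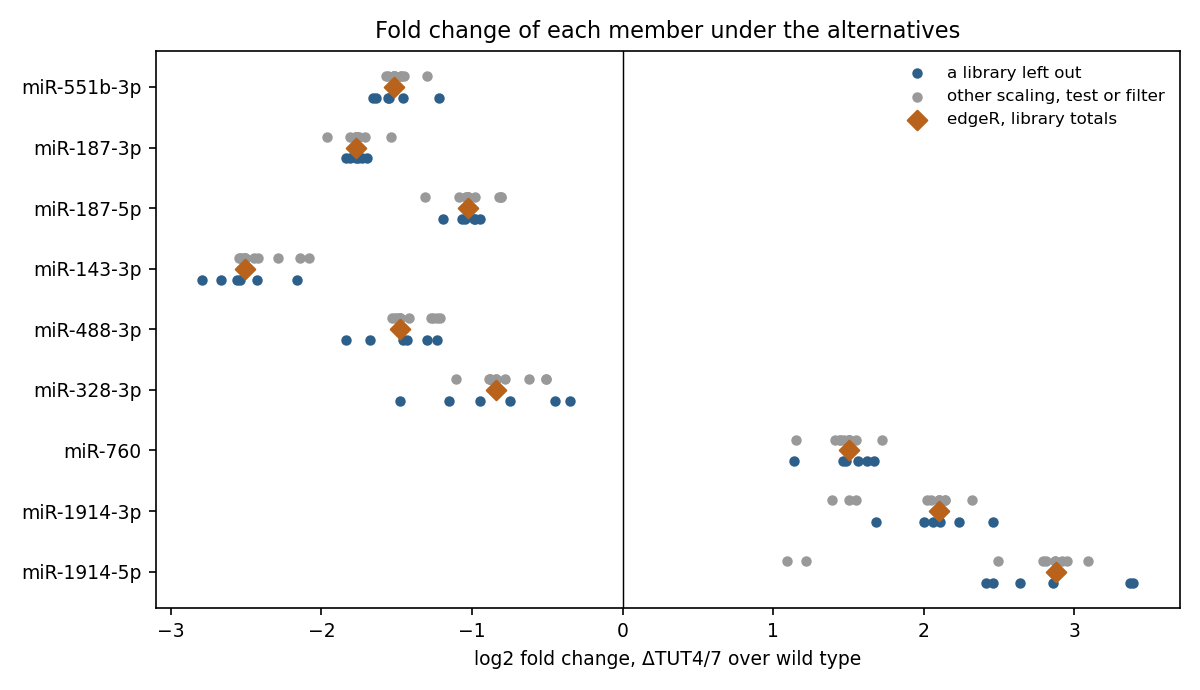
log2 fold change of each member over all alternatives, with the edgeR value on library totals as an orange diamond, the fits with a library left out in blue and other scalings, tests or filters in grey. No value crosses zero, in fits of the same counts on which the members were chosen. The widest spread is that of miR-1914-5p, from 1.09 with limma-trend to 3.39 without wild type replicate 1.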

How the data were processed

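The members and lists were chosen with earlier results of these data known. The authors cut the miRNA reads to their first 18 nt, used Bowtie 1.0.0 with the hg38 genome and quantified on miRBase 22 mature miRNAs in Partek Flow 10.0.22. The deposited values are estimated counts, divided by the authors' expectation-maximization among miRNAs that share reads and written as whole numbers. The sources used here do not say whether molecular identifiers were counted. A deposited comparison by the authors, with p-values, fold changes and strain means, was not used.

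Counts were scaled to library totals, and 826 miRNAs, those that reached more than 7 counts in some library, were tested in edgeR 4.0.16 (quasi-likelihood, Benjamini-Hochberg) in R 4.3.3. A call needed a log2 fold change of at least 1 and an adjusted p under 0.05. The fit was tested on simulated counts. Deposited genome positions were matched to hg38, and 897 of the 1000 names to RefSeq. Precursors were folded with ViennaRNA 2.7.2. Group II arms were matched by name to the paper's list of 45 hairpins. Named miRNAs were the members, other arms of their hairpins, neighbours within 10 kb, sharers of a seed, called group II arms and the 3 nearest profiles. p-values measure the spread between cultures of 1 strain each. Of the other marker lists, endocrine cells (miR-375-3p) had 98.0 to 110 CPM in ΔTUT4/7 and 83.9 to 101 CPM in wild type libraries. Markers of muscle and neurons were not analysed here.

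Alternatives were TMM and RLE factors, let-7 and miR-98 left out of the totals, limma-trend (limma 3.58.1) with log2(CPM + 1), DESeq2 1.42.0, no filter, filterByExpr, the replicate number as a block, each library left out, sums over the first 18 nt, the ratio of mean CPM + 1 and, for the precursors, folding of the whole hairpin. Removal of each library's GC trend (lowess, span 0.5) was added after seeing the data.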

Additional observations from a re-analysis of the deposited data

How the results depend on the processing

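The 9 members kept their direction in all 151 values under the alternatives. Every alternative used the counts on which the members were chosen, so this describes the fits and is no evidence for their change. Of the group II arms outside let-7, 4 to 8 were increased and 5 to 11 decreased, against 6 and 9. The 5 decreased came with let-7 and miR-98 left out of the totals, which by construction raises all values alike, so that miR-23b-3p (-0.90), miR-99a-3p (-0.96), miR-99a-5p (-0.97) and miR-187-5p (-0.81) lay under 2-fold. Over all miRNAs the same totals gave 183 increased and 81 decreased, or 69.3% increased among the called in place of 54.8%. The replicate block gave 131 increased and 102 decreased in place of 136 and 112, and 6 and 9 group II arms. In their deviations from the strain means, same-numbered libraries of the strains had correlations of -0.17, -0.15 and -0.25, and the main fit did not pair them. With 3 libraries per strain, such values cannot exclude a shared batch. With log2(CPM + 1) in limma-trend, the added 1 lowered the log2 fold change of miR-1914-5p to 1.09 and of miR-1914-3p to 1.39. miR-1914-5p was not tested with filterByExpr, nor was miR-328-3p. With each library left out, 7 or 8 members had strains that did not overlap, against 7 with all 6 libraries. Leaving out a library can only keep or raise this count, so it is no measure of stability. Over all tested miRNAs and all 6 libraries, 28.8% had every ΔTUT4/7 library above the wild type and 29.5% every one below. At under 10 CPM, counts of 1 to 88 limited the precision of 6 members.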
